A study of Mus musculus with 8 samples.

Results

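Single kidney cells taken 1 day after ischemia-reperfusion injury (IRI) were compared between mice given entospletinib and mice given vehicle. IRI is the stopping and restoring of the kidney's blood supply, and entospletinib is a small-molecule inhibitor of spleen tyrosine kinase (SYK). The members were all cells whose deposited condition was 1 of these 2 and that had more than 300 detected genes, fewer than 20000 counts and less than 25% of counts from mitochondrial genes. That left 14041 of 15282 barcodes with entospletinib and 22489 of 23952 with vehicle, or 36530 cells of 90855 that met the same limits in the whole series of 7 conditions (40.2%). The other conditions were uninjured kidneys and both treatments at days 7 and 14.

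Both groups were C57BL/6 mice with IRI of 1 kidney. The drug, or its solvent DMSO as vehicle, was injected into the peritoneum before the injury and not repeated by day 1. Kidneys of 3 mice per condition were pooled before barcoding, so each condition was 1 pool. Without replicate pools, differences between the treatments could not be tested, and every comparison below is a description of these pools. Cells were sorted for exclusion of a dead-cell dye and for the light scatter of leukocytes, so every share describes the sorted suspension and not the kidney. Transcripts were tagged by combinatorial barcoding, in which the fixed cells of each pool were spread over 7 wells of the plate's initial round and all cells were then divided over 8 sublibraries. Wells and sublibraries are technical portions of the same pool of mice. Their range is given with the values below, and it measures handling error alone.

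SYK is a cytoplasmic tyrosine kinase that binds receptors and adaptors carrying the immunoreceptor tyrosine-based activation motif (ITAM). It signals downstream of Fc receptors, C-type lectins such as Dectin-1, the B cell receptor and, in neutrophils, integrins. In the hours after IRI the kidney fills with neutrophils and with monocytes from the blood, whereas resident macrophages, dendritic cells and lymphocytes are present before the injury. Tubule cells of the proximal segment are the part of the nephron that ischemia damages most.

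The pools differed in depth as well as in treatment. Total counts were 35255844 with entospletinib and 77403258 with vehicle, with medians of 2055 and 2722 counts per cell. Median counts per cell ranged over wells from 1712 to 2534 with entospletinib and from 1992.5 to 3525 with vehicle. The study states a limit of under 1.5% for ribosomal genes. The total of cells it reports is close to the 90855 that met the other limits here. Its ribosomal measure may therefore have differed from the share of ribosomal protein gene counts used here. Cells with at least 1.5% of counts from ribosomal protein genes, kept here, made up 29.0% and 8.53% of the pools (4075 and 1918 cells). In the wells of like depth (A9, A11, A12 and B1 against C4 and C5) these shares were 20.8% and 17.9%. Median counts per cell in those wells were 2349.5 with entospletinib and 2013 with vehicle, so depth was closer but not equal, and its order was reversed. The share of counts from the ribosomal RNA entry *Rn18s-rs5* was 15.6% with entospletinib and 8.87% with vehicle, and the wells did not overlap. Of 33913 combinations of barcoding wells in these pools, 4877 recurred in more than 1 sublibrary, so cells were kept apart by sublibrary.

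Cells were assigned to 21 classes by a gate on marker genes, and 13 classes had at least 100 cells in each pool. Names rest on these markers alone, and 9.51% of cells met no class and 8.83% met the gates of classes of different lineages and stayed unassigned. Doublets were not removed by a caller. The main difference was in the balance of the innate cells. Neutrophils, the short-lived granulocytes that enter an injured kidney early, and monocytes (*Ly6c2*, *Ccr2* and other markers) together made up 21.5% of cells with entospletinib and 49.9% with vehicle, a ratio of 0.431. Macrophages, dendritic cells, B cells, endothelial cells and nonclassical monocytes all took a larger share.

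Neutrophils made up 31.8% of vehicle cells (exact 95% interval 31.2% to 32.4%) and 14.3% of entospletinib cells (13.7% to 14.9%). Over wells their share was 30.9% at the lowest, 31.7% at the median and 33.4% at the highest with vehicle, and 13.2%, 14.3% and 15.2% with entospletinib. The wells did not overlap, and the log2 ratio of −1.16 had the same sign in 8 of 8 sublibraries (SD 0.0377). Neutrophils with entospletinib were shallower, at a median of 1062 counts per cell against 1600, and the limit of 300 genes left out 4.60% of barcodes with entospletinib and 1.56% with vehicle. If each of those 703 entospletinib barcodes had been a neutrophil, the share would have been 18.4%.

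Monocytes made up 18.0% of vehicle cells (17.5% to 18.5%) and 7.21% of entospletinib cells (6.79% to 7.65%). The wells ranged from 15.0% to 19.8% and from 6.20% to 7.70%, again without overlap, and the log2 ratio was −1.32 (SD over sublibraries 0.134). Nonclassical monocytes, which patrol the inside of vessels, went the other way, from 6.54% to 9.68%, a log2 ratio of 0.57 (SD 0.117). Their wells ranged from 5.89% to 7.70% with vehicle and from 8.52% to 10.2% with entospletinib.

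Macrophages made up 9.54% of cells with vehicle and 21.7% with entospletinib (log2 ratio 1.19, SD 0.117), and their wells ranged from 8.71% to 11.2% and from 20.6% to 23.1%. Endothelial cells stood at 4.11% and 8.18% (0.99, SD 0.179). Conventional dendritic cells of type 2 (cDC2), which present antigen to helper T cells, stood at 3.29% and 5.97% (0.86, SD 0.270). Type 1 cells (cDC1), which cross-present antigen to cytotoxic T cells, stood at 0.920% and 2.17% (1.23, SD 0.447). Under the ribosomal limit of 1.5% the cDC1 ratio was 0.51. B cells stood at 1.18% and 3.08% (1.38, SD 0.232), and natural killer (NK) cells at 0.542% and 0.954% (0.81, SD 0.574). The wells of the pools did not overlap for any of these 6 classes.

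The wells overlapped for T cells, at 1.24% with vehicle and 1.71% with entospletinib, and for all 3 tubule classes. Proximal tubule cells made up 2.02% and 1.67%, loop of Henle cells 0.818% and 1.17%, and distal tubule or collecting duct cells 1.19% and 0.954%. Classes with fewer than 100 cells in a pool were counted but not compared by gene. Among these, cells with basophil or mast cell markers numbered 11 with vehicle and 44 with entospletinib, and plasmacytoid dendritic cells 79 and 109.

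Shares of a whole are tied to each other, so they were also taken among cells other than neutrophils and monocytes. On that base macrophages made up 19.0% with vehicle and 27.7% with entospletinib (log2 ratio 0.54), B cells 2.35% and 3.92% (0.74), cDC1 1.84% and 2.76% (0.59) and endothelial cells 8.20% and 10.4% (0.34). The ratios of 2 classes named above were much smaller on this base, cDC2 at 6.56% and 7.60% (0.21) and NK cells at 1.08% and 1.22% (0.17). Nonclassical monocytes (−0.08) and T cells (−0.18) were then near the same share in both pools. Proximal tubule cells were lower, at 4.03% and 2.13% (−0.92), as were distal cells (−0.96), although the wells of both tubule classes overlapped as shares of all cells. The distal share of all cells was lower in only 4 of 8 sublibraries, and its median over wells was 0.699% with vehicle and 0.968% with entospletinib.

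**Figure D1:**
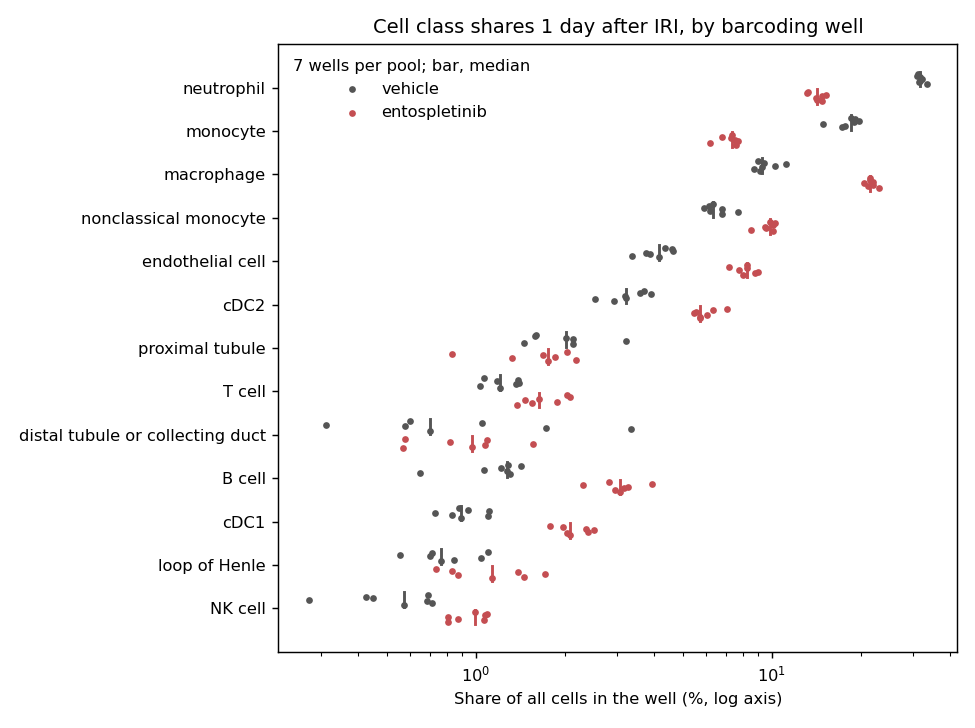
Share of each cell class among all cells of a barcoding well, in percent on a log axis, for 7 vehicle wells (grey) and 7 entospletinib wells (red), with a bar at the median. Neutrophil and monocyte wells lie lower with entospletinib and macrophage, endothelial, cDC1, cDC2, B cell and nonclassical monocyte wells higher, whereas T cell and tubule wells overlap.

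Expression was compared first over all cells. Values are counts per 1000000 counts of the class and pool (CPM), and the log2 ratio of entospletinib over vehicle is given relative to the median of the measured genes, whose own ratio, subtracted from each gene, lay between −0.22 (T cells) and 0.13 (all cells). A gene was measured when its mean CPM corresponded to at least 30 counts in the smaller pool, and called when its ratio was past 2-fold. In bulk over all cells, fewer cells of a type and less RNA per cell cannot be told apart. Among the genes with the lowest ratios were *Ppbp*, a chemokine of platelets and myeloid cells (log2 ratio −2.74), the neutrophil-attracting chemokine gene *Cxcl3* (−2.68), *Il23a*, a subunit of interleukin-23 (−2.68), and *Pdpn*, encoding podoplanin (−2.66), with the wells apart for each. On the other side were the scavenger receptor genes *Marco* (0.168 and 3.72 CPM, 4.29) and *Stab2* (1.40 and 8.71 CPM, 2.51) and *Cyp11a1*, a marker of the basophil or mast cell gate (1.38 and 7.63 CPM, 2.33).

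Of 15080 genes measured over all cells, 210 (1.39%) were higher past 2-fold with entospletinib and 495 (3.28%) lower. The balance depended on the cells kept: 324 were higher and 360 lower under the ribosomal limit, and 124 and 630 with each cell thinned to 1000 counts. In 71 (0.471%) and 368 (2.44%) of the measured genes the wells of the pools were also apart, meaning that each entospletinib well lay above, or below, each vehicle well. Of 33 measured cytokine, chemokine and NF-κB target genes 14 were lower and 0 higher (median −0.87), and of 20 Fc receptor and ITAM partner genes 8 were lower and 0 higher (median −0.88). The sizes of the classes and their profiles were then changed in turn. With each class held at its vehicle profile and only the sizes changed, 37 of the 495 lower genes and 0 of the 210 higher genes were past 2-fold, with medians of −0.67 and 0.26. With sizes held and profiles changed, 105 and 93 were past 2-fold, with medians of −0.61 and 0.95. The comparison was next taken within classes.

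*Syk* itself (ENSMUSG00000021457, mm10 chromosome 13, 52583173 to 52648792, plus strand, protein-coding) was at 834 CPM with vehicle and 506 CPM with entospletinib over all cells, with wells from 745 to 943 and from 444 to 584. Within classes the difference was smaller. *Syk* was measured in 9 classes and lay below the median gene in 9, from −0.60 in NK cells to −0.16 in B cells, and past 2-fold in none. In neutrophils it was at 1529 CPM with vehicle and 1105 CPM with entospletinib (−0.40), and the wells, 1373 to 1729 and 991 to 1303, did not overlap. Among its partners in neutrophils, the SRC family kinase gene *Fgr* was higher (1205 and 1546 CPM, 0.42, wells apart) and *Lyn* stood at 3303 and 3267 CPM (0.05). Of the 24 genes listed for SYK signaling, the measured members numbered 22 in neutrophils and 24 in macrophages, with 0 called in either direction and medians of −0.07 and −0.08. Among all measured genes, 2.31% were called higher and 1.83% lower in neutrophils, and 0.408% and 0.816% in macrophages. At those shares a list of this size would hold few calls or none, so the 0 is not a result about its members.

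Neutrophils with entospletinib carried less of several inflammatory genes. *Icam1* (ENSMUSG00000037405), an adhesion ligand of leukocyte integrins that activated neutrophils also carry, stood at 287 CPM (278 to 297, exact Poisson 95% interval) with vehicle and 93.9 CPM (82.0 to 107) with entospletinib, a log2 ratio of −1.54. Its lowest, median and highest vehicle wells were at 262, 285 and 325 CPM. The entospletinib wells were at 62.2, 97.1 and 119 CPM, so that the highest of them lay below the lowest vehicle well. *Il1a* (ENSMUSG00000027399), the alarmin interleukin-1α, stood at 169 and 56.2 CPM (−1.52). Its wells ran from 122 over 171 to 210 CPM and from 15.5 over 58.5 to 96.0 CPM.

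Other genes were lower in neutrophils with wells apart. *Il1rl2*, the interleukin-36 receptor, stood at 22.9 and 4.61 CPM (−2.18). The antiapoptotic BCL2 relatives *Bcl2a1a*, *Bcl2a1d* and *Bcl2a1b* were at −2.01, −1.90 and −1.34. These 3 copies are nearly identical, so reads may have been divided among them in error, and their values are uncertain and not separate results. *Il23a* stood at 58.8 and 17.6 CPM (−1.66), *Prdm1*, a transcriptional repressor, at 39.1 and 11.7 CPM (−1.65) and *Rhoq*, a small GTPase, at 88.3 and 21.4 CPM (−1.97). The wells of each were apart.

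Of 25 measured cytokine, chemokine and NF-κB target genes, 4 were lower and 0 higher, against 1.83% of measured genes called lower, and the list's median was −0.43, where the median of all measured genes was set to 0. The 4 were *Icam1*, *Il1a*, *Cxcl3* (177 and 70.0 CPM, −1.27) and *Tnfaip3*, the feedback inhibitor A20 (898 and 418 CPM, −1.04). The prostaglandin synthase gene *Ptgs2* was at −0.88 with its wells apart. Other members of the same list stood still: *Il1b*, the most abundant cytokine transcript, was at 12954 and 11818 CPM (−0.07), and *Cxcl2* at 3324 and 3487 CPM (0.13), with overlapping wells for both. Of 20 immediate early genes, *Nr4a3* (447 and 166 CPM, −1.36, wells 355 to 598 and 117 to 213) and *Nr4a2* were lower. The integrin gene *Itgax* was at 144 and 64.6 CPM (−1.09).

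Among the higher genes was *Lcn2*, the iron-binding protein neutrophil gelatinase-associated lipocalin, at 467 CPM with vehicle and 1001 CPM with entospletinib (1.16), with wells from 392 to 652 and from 817 to 1368 CPM. *Wfdc21*, a small secreted protein, stood at 71.9 and 231 CPM (1.75), and *Anxa1*, annexin A1, which limits neutrophil adhesion, at 201 and 424 CPM (1.14), both with wells apart. *Prok2*, prokineticin 2, stood at 4.11 and 27.7 CPM (51 and 66 counts, 2.81), with wells from 0.918 to 10.2 and from 15.6 to 40.4 CPM. *Pou2f2*, a transcription factor, stood at 38.8 and 148 CPM. It is also a marker of the nonclassical monocyte gate, and the part of RNA from that class in its value was not tested. *Rhov*, a small GTPase, was at a ratio of 2.04 and *Rasgrp2*, the activator of RAP1 upstream of integrins, at 55.8 and 108 CPM (1.02). *Ngp*, of secondary granules, was at 4.84 and 20.5 CPM (2.15) with overlapping wells. Of 9 granule and maturation genes that are not markers of the gate, 2 were higher (*Lcn2* and *Ngp*) and 0 lower, against 2.31% of measured genes called higher, with a median of 0.36.

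In all, 5292 genes were measured in neutrophils, of which 122 (2.31%) were higher and 97 (1.83%) lower. With the trimmed mean scaling of edgeR (TMM) in place of the median gene, 81 were higher and 140 lower, so that the more frequent direction turned, as it did in the wells of like depth (81 and 95). In the main values 50 (0.945%) and 68 (1.28%) had wells apart as well. Of the higher genes, 31 were among 82 measured ribosomal protein genes (median 0.89), beside the lower depth of the entospletinib neutrophils given above. In the wells of like depth the ratios of *Icam1*, *Il1a* and *Bcl2a1a* were −1.51, −1.11 and −2.52 and those of *Prok2* and *Wfdc21* 3.01 and 1.35, but *Nr4a3* (−0.92), *Itgax* (−0.57), *Tnfaip3* (−0.59), *Lcn2* (0.71), *Anxa1* (0.60) and *Rasgrp2* (0.85) were no longer past 2-fold. RNA of other cells moved as well: the tubule gene *Umod* stood at 24.3 and 55.8 CPM and the 12 loop of Henle markers summed to 94.5 and 157 CPM, of which 0 and 3 were at 0. The 11 macrophage markers summed to 626 and 625 CPM and the 11 monocyte markers, *Thbs1* (−0.60) among them, to 4916 and 3535 CPM. The macrophage gene *C1qc* was past 2-fold higher (1.18), but it stood at 0.80 with thinning and 0.66 in the wells of like depth. The part of these in the results was not tested.

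**Figure D2:**
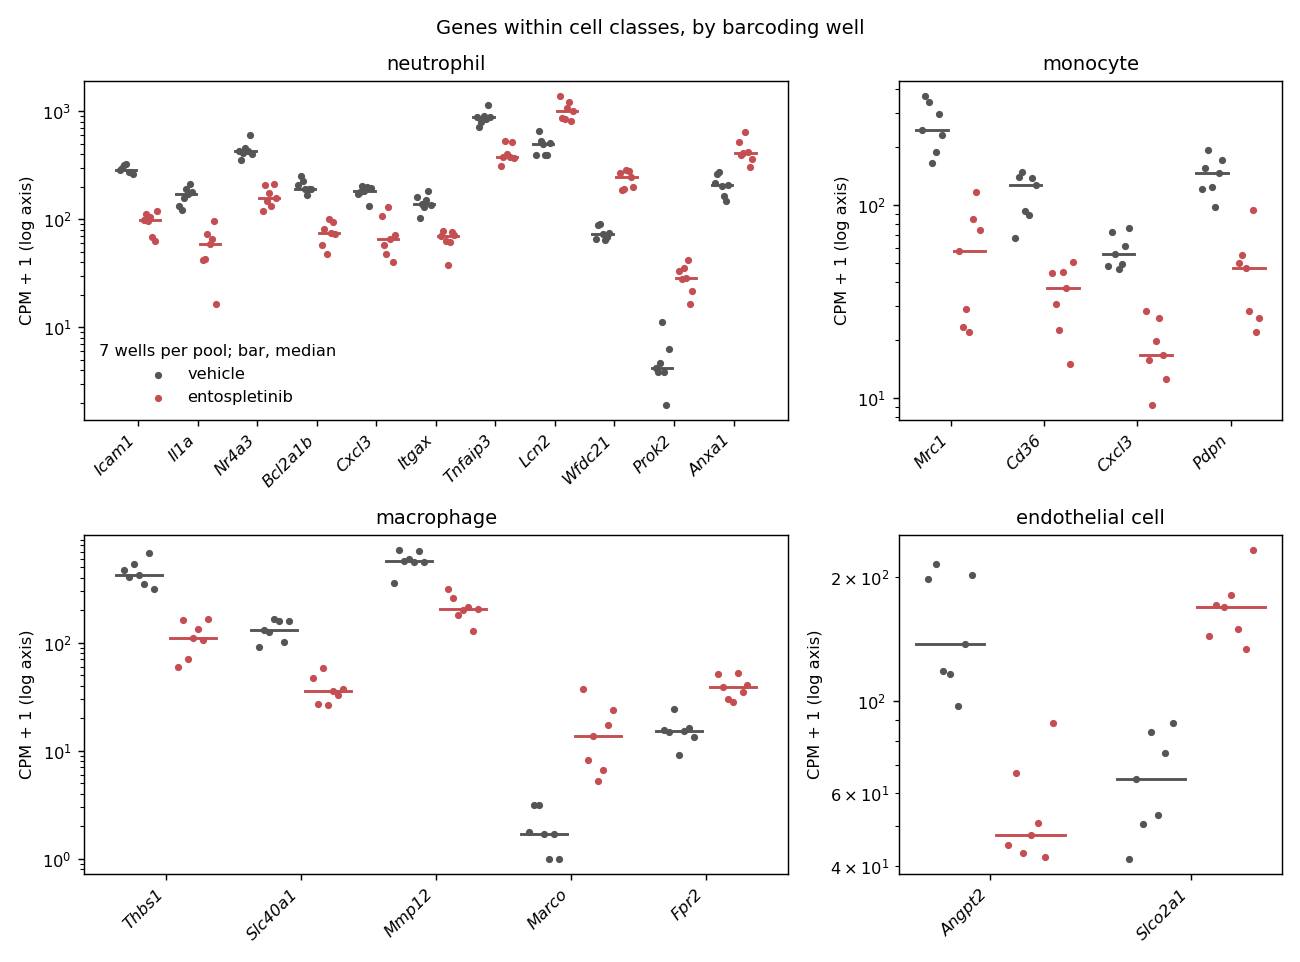
CPM plus 1 on a log axis for genes within neutrophils, monocytes, macrophages and endothelial cells, with 7 wells per pool (grey, vehicle; red, entospletinib) and a bar at the median. The wells of the pools are apart for each gene drawn, with neutrophil Icam1 at 262 to 325 CPM against 62.2 to 119 CPM and neutrophil Lcn2 at 392 to 652 CPM against 817 to 1368 CPM.

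The promoters of lower neutrophil genes were also read. Windows ran from 250 bases before to 50 bases after gene starts given by RefSeq (GRCm38.p6, the assembly behind mm10). Of the genes measured in neutrophils, 4217 had a window. The motif TGANTCA, in which N is any base, was searched on both strands, chosen after the lower genes were seen. It is wider than the AP-1 site of FOS and JUN dimers, TGACTCA or TGAGTCA. Of the stretches below, those of *Il1a* and *Itgax* hold that site, and the 3 *Bcl2a1* copies hold TGAATCA. It was present in 8.97% of all genes with a window and in 7.09% of genes measured in neutrophils. Because the motif was chosen on the lower genes, its count among them is not given. The match is a description of letters and not of binding. Stretches of the promoters of *Il1a*, *Itgax* and the 3 *Bcl2a1* copies are shown, on the gene's strand, 5′ to 3′, with the motif in capitals, as examples of lower genes named above whose window holds it. The near-identical copies are not separate examples.

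Il1a (chr2:129309973-129310001, minus strand): aaaaaggcagagaagccTGACTCAgactt
Itgax (chr7:128129477-128129517, plus strand): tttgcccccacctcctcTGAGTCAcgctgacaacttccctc
Bcl2a1a (chr9:88956783-88956823, plus strand): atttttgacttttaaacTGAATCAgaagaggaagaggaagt
Bcl2a1b (chr9:89199092-89199132, plus strand): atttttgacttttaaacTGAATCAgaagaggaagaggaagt
Bcl2a1d (chr9:88731941-88731981, minus strand): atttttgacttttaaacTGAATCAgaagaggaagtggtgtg

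The motif starts 12 bases before the start of *Il1a*, 56 before that of *Itgax* and 120, 164 and 114 before those of *Bcl2a1a*, *Bcl2a1b* and *Bcl2a1d*. The stretches of *Bcl2a1a* and *Bcl2a1b* are the same in all 41 bases.

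Monocytes, which also took a smaller share of the cells, had fewer counts of several myeloid genes. *Mrc1*, the mannose receptor, stood at 252 and 57.4 CPM (−2.0), with wells of 165, 244 and 363 CPM and of 21.0, 57.0 and 116 CPM at the lowest, median and highest. *Cd36*, a scavenger receptor for oxidized lipid, stood at 110 and 33.3 CPM (−1.59), *Pdpn* at 139 and 43.3 CPM (−1.55), *Cxcl3* at 57.0 and 16.4 CPM (−1.66) and *Ppbp* at 24.9 and 4.44 CPM (−2.32). The wells of these 5 genes were apart, and in the wells of like depth the first 4 were between −2.26 and −1.94.

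Higher in monocytes was *Wfdc21*, at 9.04 and 23.9 CPM (1.53, wells apart), as in neutrophils. Of 7706 genes measured in monocytes, 26 (0.337%) were higher and 45 (0.584%) lower, and 4 (0.0519%) and 28 (0.363%) had wells apart. The split was 16 and 69 with TMM but turned to 29 and 23 with thinning and to 55 and 44 in the wells of like depth. Of 19 complement and phagocytosis genes, 2 were lower (*Mrc1* and *Cd36*) and 0 higher, with a median of −0.53, and of 22 hypoxia and glycolysis genes 2 were lower, *Egln3* among them (−1.24, and −0.77 with thinning), and 0 higher, with a median of −0.40. The 11 monocyte markers, which set the gate, summed to 16389 and 11956 CPM. Markers of other classes were also lower in monocytes: the 12 neutrophil markers summed to 1432 CPM with vehicle (wells 1318 to 1603) and 1054 CPM with entospletinib (945 to 1212), and the 11 macrophage markers, *Mrc1* among them, to 1719 and 1309 CPM with overlapping wells. None of them was at 0, and their part in the result was not tested. Of 29 cytokine, chemokine and NF-κB target genes 2 were lower and 0 higher.

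In nonclassical monocytes several lower genes with wells apart stood highest in neutrophils. *Hdc*, the histamine-forming enzyme, stood at 150 and 57.5 CPM (−1.22), *Il1rap*, the shared subunit of interleukin-1 receptors, at 91.9 and 36.1 CPM (−1.19), and *Ptgs2* at 163 and 70.7 CPM (−1.05). In vehicle neutrophils these genes stood at 5545, 1635 and 1980 CPM, and 25 of the 35 lower genes were at least 5-fold higher in another class, against 12.6% of measured genes. Beside this, the 12 neutrophil markers, *Hdc* among them, summed to 1314 CPM in the vehicle cells of this class (wells 1197 to 1476). In the entospletinib cells they summed to 733 CPM (602 to 861), with 0 of 12 at 0 in either pool. Their part in the result was not tested. In the wells of like depth *Il1rap* (−0.81) and *Ptgs2* (−0.87) were no longer past 2-fold, nor with thinning were *Hdc* (−0.94) and *Ptgs2* (−0.96). Of 7734 genes, 33 (0.427%) were higher and 35 (0.453%) lower, with wells apart in 6 (0.0776%) and 12 (0.155%). The split was 26 and 42 with TMM, 30 and 18 with thinning and 35 and 19 in the wells of like depth, so neither direction was the more frequent throughout.

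Macrophages, which took the largest share with entospletinib, had fewer counts of *Thbs1*, *Slc40a1* and *Mmp12*. *Thbs1*, the matrix protein thrombospondin 1, stood at 455 and 116 CPM (−1.91), the iron exporter *Slc40a1* at 134 and 37.0 CPM (−1.79), and the elastase *Mmp12* at 575 and 208 CPM (−1.41), each with wells apart. Of 19 Fc receptor and ITAM partner genes, *Clec4n*, the C-type lectin Dectin-2 (52.5 and 19.6 CPM, −1.36), and *Sirpb1c* were lower and 0 were higher, against 0.816% of measured genes called lower, with a median of −0.48. Of 16 monocyte matrix and coagulation genes, 5 were lower and 0 higher (median −0.71). Of the 5, *Fn1*, *Vcan* and *Thbs1* are markers of the monocyte gate. The monocyte markers summed to 1466 CPM in the vehicle macrophages and 1037 CPM in the entospletinib macrophages. That sum includes the 455 and 116 CPM of *Thbs1* and is not separate from it. The neutrophil markers summed to 812 and 555 CPM, and the wells overlapped for both sums. Of the 84 lower genes, 48 were at least 5-fold higher in another class, against 14.5% of measured genes. The part of these in the result was not tested.

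Higher in macrophages were *Fpr2*, a formyl peptide receptor (14.1 and 37.8 CPM, 1.48, wells apart), and *Marco*. *Marco* (ENSMUSG00000026390, mm10 chromosome 1, 120474538 to 120505024, minus strand) had 7 counts with vehicle and 110 with entospletinib, or 0.787 CPM (0.316 to 1.62) and 14.7 CPM (12.1 to 17.7), with wells of 0 to 2.12 and 4.22 to 36.2 CPM. Over all cells of the other 6 conditions it stood between 0.0973 and 0.460 CPM. Of 10297 genes measured in macrophages, 42 (0.408%) were higher and 84 (0.816%) lower, with wells apart in 11 (0.107%) and 30 (0.291%). The excess of lower genes was gone with thinning (39 and 40) and in the wells of like depth (57 and 59).

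In cDC2, the matrix protein gene *Spon1* stood at 142 and 31.7 CPM (−2.06), with wells from 105 to 208 and from 17.2 to 56.5 CPM. *Clec7a*, the SYK-coupled β-glucan receptor Dectin-1, stood at 414 and 175 CPM (−1.15, wells 289 to 678 and 129 to 259), and the hyaluronan receptor *Cd44* at 1130 and 477 CPM (−1.15, wells 885 to 1303 and 389 to 567). *Il1r2*, the decoy interleukin-1 receptor, stood at 1604 and 630 CPM (−1.25), and the serotonin receptor gene *Htr7* at 339 and 141 CPM (−1.17). Of 18 Fc receptor and ITAM partner genes, 4 were lower (*Clec7a*, *Clec4d*, *Clec4e* and *Clec4n*) and 0 higher, against 0.607% of measured genes, although the list's median was −0.14. The last 3 had overlapping wells and were not past 2-fold under some alternatives, at −0.92 for *Clec4d* and −0.89 for *Clec4e* with the stricter gate and −0.94 for *Clec4n* under the ribosomal limit. Without 1 of the sublibraries *Clec7a* stood at −0.98. *Clec4d* and *Clec4e* stood at 1520 and 1466 CPM in vehicle neutrophils. The neutrophil markers in this class summed to 2236 CPM with vehicle against 1117 CPM. *Il1r2* is among these markers, and its 1604 and 630 CPM were the larger part of both sums. The sums are therefore not separate from its value.

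Of the cell cycle genes in cDC2, *Mki67* stood at 27.8 and 101 CPM (1.96), *Top2a* at 13.3 and 47.5 CPM (1.92) and *Cenpe* at 10.3 and 27.7 CPM (1.52), which made 3 of 8 measured proliferation genes higher against 0.8% of measured genes (list median 0.29). With thinning *Mki67* stood at 0.86. The wells overlapped for all 3, with *Mki67* from 16.7 to 43.2 CPM in vehicle wells and from 9.56 to 204 CPM in entospletinib wells. The complement genes *C1qa* and *C1qc*, which mark macrophages, were also higher (1.14 each). Of 7252 genes, 58 (0.8%) were higher and 44 (0.607%) lower (43 and 55 with TMM), with wells apart in 8 (0.11%) and 22 (0.303%).

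In cDC1, *Thbs1* (408 and 88.8 CPM, −2.0) and the guanine deaminase *Gda* (285 and 66.3 CPM, −1.90) were lower and *Ptms*, parathymosin, was higher (287 and 576 CPM, 1.20), with wells apart. Of 5154 genes, 53 (1.03%) were higher and 90 (1.75%) lower, with wells apart in 7 (0.136%) and 13 (0.252%), but 44 and 40 under the ribosomal limit and 20 and 13 with thinning. Of the 90, 59 were at least 5-fold higher in another class, against 9.72% of measured genes. Monocyte markers, *Thbs1* among them, summed to 1913 and 1001 CPM and neutrophil markers to 930 and 385 CPM.

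Endothelial cells showed lower *Angpt2* (ENSMUSG00000031465), the angiopoietin that loosens vessel walls by opposing TIE2 signaling. It stood at 154 CPM (141 to 169) with vehicle and 54.3 CPM (45.4 to 64.4) with entospletinib (−1.42), with wells of 96.6, 137 and 214 CPM and of 41.1, 46.5 and 87.8 CPM at the lowest, median and highest. Other genes of activated endothelium pointed the same way with overlapping wells: *Edn1*, the vasoconstrictor endothelin-1 (79.0 and 20.6 CPM, −1.85), and the YAP target *Ccn2* (96.1 and 40.7 CPM, −1.16). Adhesion molecules for leukocytes did not share this. *Icam1* stood at 130 and 116 CPM (−0.09), *Sele* at 20.5 and 20.2 CPM (0.06), *Selp* at 23.5 and 30.0 CPM (0.43) and *Vcam1* at 134 and 193 CPM (0.60), all with overlapping wells.

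Higher in endothelial cells was *Slco2a1*, a prostaglandin transporter, at 64.4 and 169 CPM (1.46, wells 40.6 to 87.4 and 133 to 231). The metallothionein gene *Mt2* stood at 9.91 and 32.1 CPM (1.76, wells apart) and the lipoprotein lipase gene *Lpl* at 53.5 and 174 CPM (1.78, wells overlapping). Of 24 measured endothelial activation genes that are not markers of the gate, 3 were lower, *Angpt2* and *Ccn2* among them, and 0 higher, against 0.294% of measured genes, with a median of 0.15. Of 23 interferon response genes 0 were called, with a median of −0.25. Of 8150 genes, 51 (0.626%) were higher and 24 (0.294%) lower, with wells apart in 8 (0.0982%) and 3 (0.0368%). In the wells of like depth *Angpt2* was at −1.35, *Slco2a1* at 1.79 and *Edn1* at −2.57, but *Ccn2* was at −0.05, and at −0.73 with thinning.

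Lymphocytes were few, so little could be measured. In T cells, *Mki67* stood at 18.2 and 210 CPM (14 and 93 counts, 3.71) with overlapping wells and *Top2a* at 20.8 and 131 CPM (16 and 58 counts, 2.85) with wells apart, at most 31.2 CPM with vehicle and at least 39.2 CPM with entospletinib. The ratio of *Mki67* was 2.01 with thinning and 1.74 by the median over wells, and that of *Top2a* 2.07 and 2.89. *Nr4a3*, an early gene of antigen receptor signaling, stood at 225 and 83.6 CPM (−1.19, wells apart), and its ratio was −0.78 under the ribosomal limit. Of 2751 genes measured in T cells, 31 (1.13%) were higher and 7 (0.254%) lower (17 and 10 with TMM), with wells apart in 3 (0.109%) and 2 (0.0727%). In NK cells *Nr4a3* stood at 446 and 152 CPM (−1.39, wells apart). There 9 (0.651%) of 1382 genes were higher and 10 (0.724%) lower (4 and 15 with TMM), with wells apart in 1 (0.0724%) and 2 (0.145%). B cells, in which SYK transmits the signal of the antigen receptor, had 2069 and 1723 CPM of *Syk* (−0.16, wells overlapping). Of their 3409 genes, 16 (0.469%) were higher and 23 (0.675%) lower, with wells apart in 1 (0.0293%) in each direction. The more frequent direction turned under most alternatives, to 18 and 10 with thinning and to 13 and 0 in the wells of like depth.

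In the proximal tubule, the injury marker *Havcr1*, kidney injury molecule 1, stood at 268 CPM (240 to 299) with vehicle and 89.3 CPM (67.8 to 115) with entospletinib (−1.41). Its wells were 139, 283 and 402 CPM and 50.2, 60.2 and 308 CPM at the lowest, median and highest, so they overlapped, although most entospletinib wells lay low. The sulfotransferase *Sult1d1* stood at 713 and 274 CPM (−1.21) and the nuclear RNA *Neat1* at 783 and 1906 CPM (1.45), both with wells apart, although by the median over wells *Sult1d1* stood at −0.83. Of 13 measured tubular injury genes 2 were lower (*Havcr1* and *Cd44*) and 0 higher, with a median of −0.24, against 1.26% of measured genes. *Krt8* (0.01) and *Clu* (0.45), which injured tubules also raise, were not lower. Of 11 transport and metabolism genes 2 were higher, *Ppara*, the regulator of fatty acid oxidation (91.9 and 172 CPM, 1.07), and *G6pc*, with overlapping wells, against 1.93% of measured genes. By the median over wells they stood at 0.86 and 0.68.

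Of 3571 genes measured in the proximal tubule, 69 (1.93%) were higher and 45 (1.26%) lower (49 and 55 with TMM), with wells apart in 2 (0.056%) and 6 (0.168%). In the loop of Henle *Vegfa*, the endothelial growth factor, stood at 38.2 and 107 CPM (26 and 66 counts, 1.6), with wells apart at 10.4 to 61.6 and 63.7 to 175 CPM. There 47 (1.39%) of 3387 genes were higher and 27 (0.797%) lower, with wells apart in 4 (0.118%) and 1 (0.0295%). In the distal tubule or collecting duct *Sytl2*, an exocytosis gene, stood at 669 and 121 CPM (−2.40) and the respiratory chain gene *Ndufa4* at 40.9 and 132 CPM (1.75), with wells apart. Of its 3473 genes, 95 (2.74%) were higher and 48 (1.38%) lower (76 and 61 with TMM), with wells apart in 7 (0.202%) in each direction. Median counts per cell in this class were 1181 with vehicle and 3468 with entospletinib, and vehicle well shares ran from 0.312% to 3.33%.

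**Figure D3:**
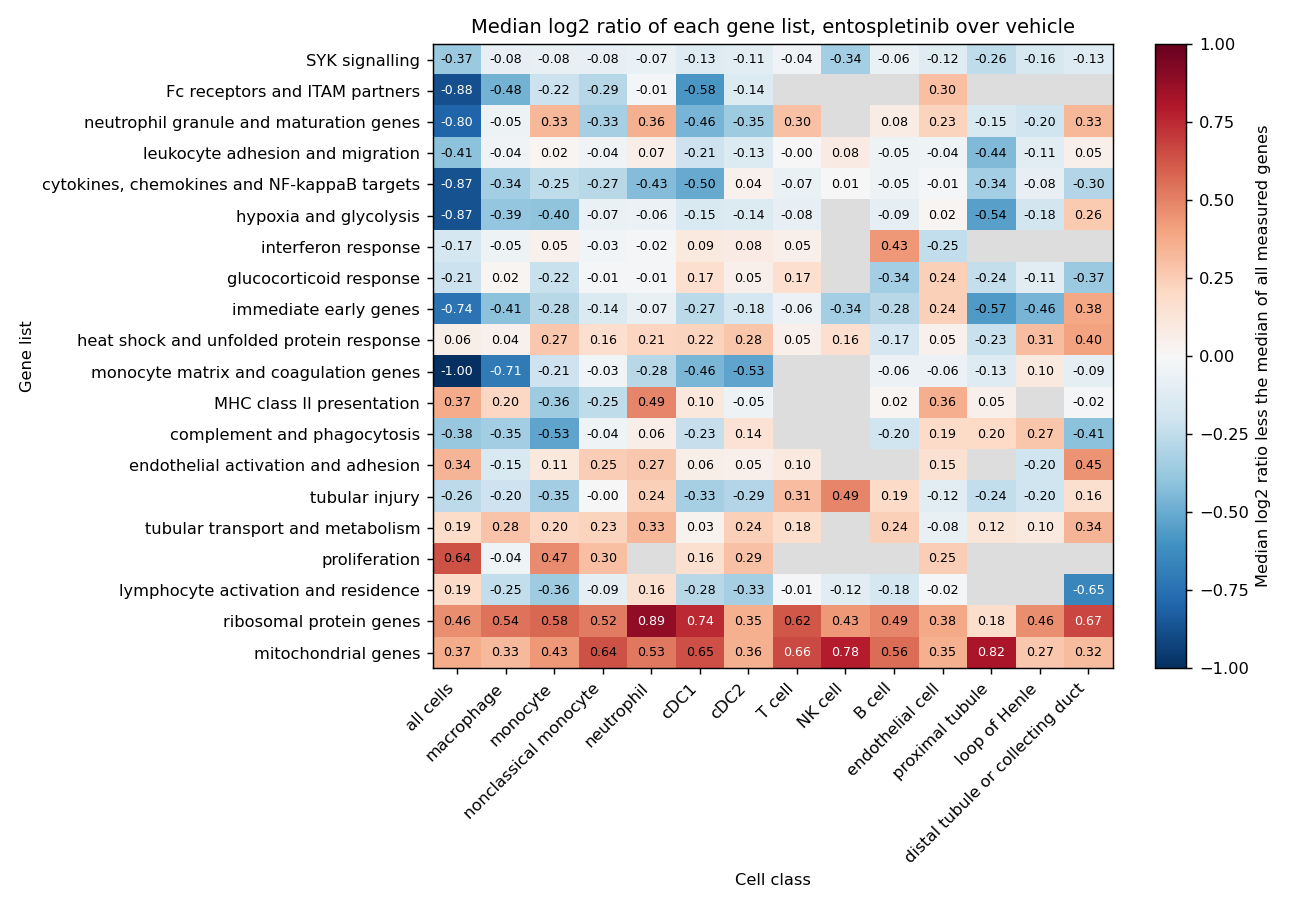
Median log2 ratio, entospletinib over vehicle, of the measured members of each gene list (rows) in all cells and in 13 classes (columns), relative to the median of all measured genes, with grey where fewer than 3 members were measured. Cytokine and NF-κB targets are at −0.87 in all cells and −0.43 in neutrophils, and complement and phagocytosis genes at −0.38 in all cells and −0.53 in monocytes.

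Some genes leaned the same way in many classes. *Nr4a3* lay below the median gene in 10 of 10 classes in which it was measured and past 2-fold in 7, from −1.44 in endothelial cells to −0.61 in monocytes, although in the wells of like depth it stood at 0.12 in B cells and −0.60 in endothelial cells, and with thinning at −0.71 and −0.74. In endothelial cells it was −0.49 without 1 sublibrary and −0.10 by the median over wells, and in cDC1 −0.78 without 1 sublibrary. *Ptgs2* was below in 8 of 8 classes and past 2-fold in 3, *Cd44* below in 13 of 13 and past 2-fold in 3 (in cDC1 −0.95 under the ribosomal limit, −0.93 with the stricter gate and −0.86 without 1 sublibrary), and *Il1b* below in 12 of 12 and past 2-fold in 1. *Thbs1* was below in 10 of 11 and past 2-fold in 6, and it stood at 0.41 in the distal class. The fractalkine receptor gene *Cx3cr1* was above in 7 of 7 and past 2-fold in 2, cDC1 and endothelial cells, and both calls were lost under some alternatives. In cDC1 it stood at 0.51 with thinning, 0.94 with the stricter gate and −0.40 in the wells of like depth. In endothelial cells it stood at 0.62 in the wells of like depth and 0.97 under the ribosomal limit. *Vegfa* was not uniform: it was past 2-fold higher in endothelial cells and in all 3 tubule classes (1.0 to 1.6) and past 2-fold lower in macrophages (22.0 and 6.15 CPM, −1.77), and the wells overlapped outside the loop of Henle. Each of its higher calls was lost under some alternative, with 0.60 in endothelial cells and 0.98 in the loop of Henle after thinning, 0.54 in the proximal tubule with mixed cells kept and 0.72 in the distal class with the stricter gate. In vehicle neutrophils *Thbs1*, *Cd44*, *Ptgs2* and *Il1b* stood at 3932, 4005, 1980 and 12954 CPM, and these cells took different shares of the pools. The part of that in these counts was not tested.

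**Figure D4:**
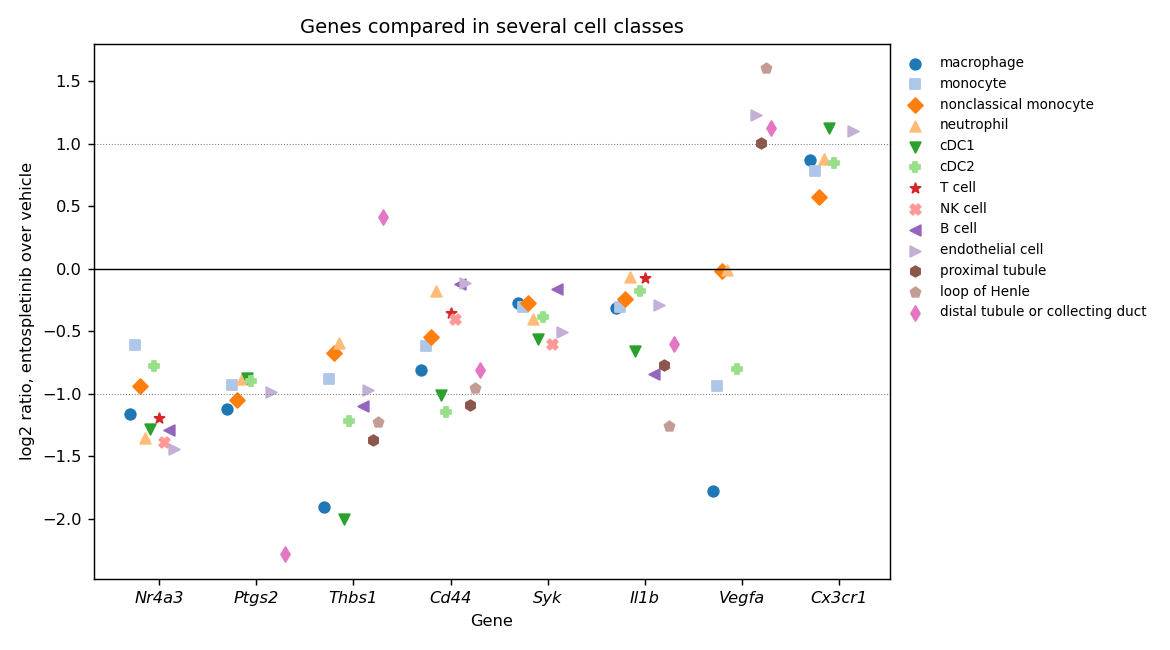
Log2 ratio, entospletinib over vehicle, of 8 genes in each class in which they were measured, with dotted lines at 2-fold. Nr4a3, Ptgs2, Cd44, Syk and Il1b lie below 0 in each class drawn, Cx3cr1 above, and Vegfa on both sides.

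Another set of genes was higher in most classes, with counts concentrated in single wells. *Peak1*, a pseudokinase of the cytoskeleton, stood at 4280 CPM over all entospletinib cells and between 267 and 441 CPM in the other 6 conditions, and it was past 2-fold higher in 13 of 13 classes. Its counts lay in well A9 (20175 CPM) and well A12 (4201 CPM), whereas the other entospletinib wells ranged down to 280 CPM and the vehicle wells from 351 to 430 CPM. By the median over wells it was −0.20 in neutrophils and −0.40 in monocytes, its lowest class. It stayed above 0 in other classes, with 0.53 in nonclassical monocytes, 0.55 in B cells and 0.91 in the proximal tubule, and was past 2-fold in no class. *Rpph1*, the RNA of RNase P, was highest in well A9 (596 CPM) and *Rn7sk*, the 7SK RNA, in well B1 (4030 CPM), each in 13 of 13 classes. By the median over wells *Rpph1* stayed past 2-fold, at 1.80 in all cells and from 1.21 in cDC1 to 2.46 in monocytes. Its wells over all cells overlapped, at 15.5 to 596 CPM with entospletinib and 5.57 to 35.5 CPM with vehicle. *Rn7sk* then stood at 0.43 in macrophages and 0.88 in endothelial cells. *Il31ra*, an interleukin-31 receptor gene, was highest in well A8 (2261 CPM, 9352 of 19948 counts), yet the entospletinib wells, from 168 CPM upward, all lay above the vehicle wells (27.4 to 156 CPM). Over the 7 conditions *Il31ra* was lowest in this vehicle pool (97.3 CPM), and the entospletinib pool (566 CPM) lay within the range of the others, up to 985 CPM. Each sublibrary holds cells of all wells, so like values over sublibraries do not exclude such genes.

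**Figure D5:**
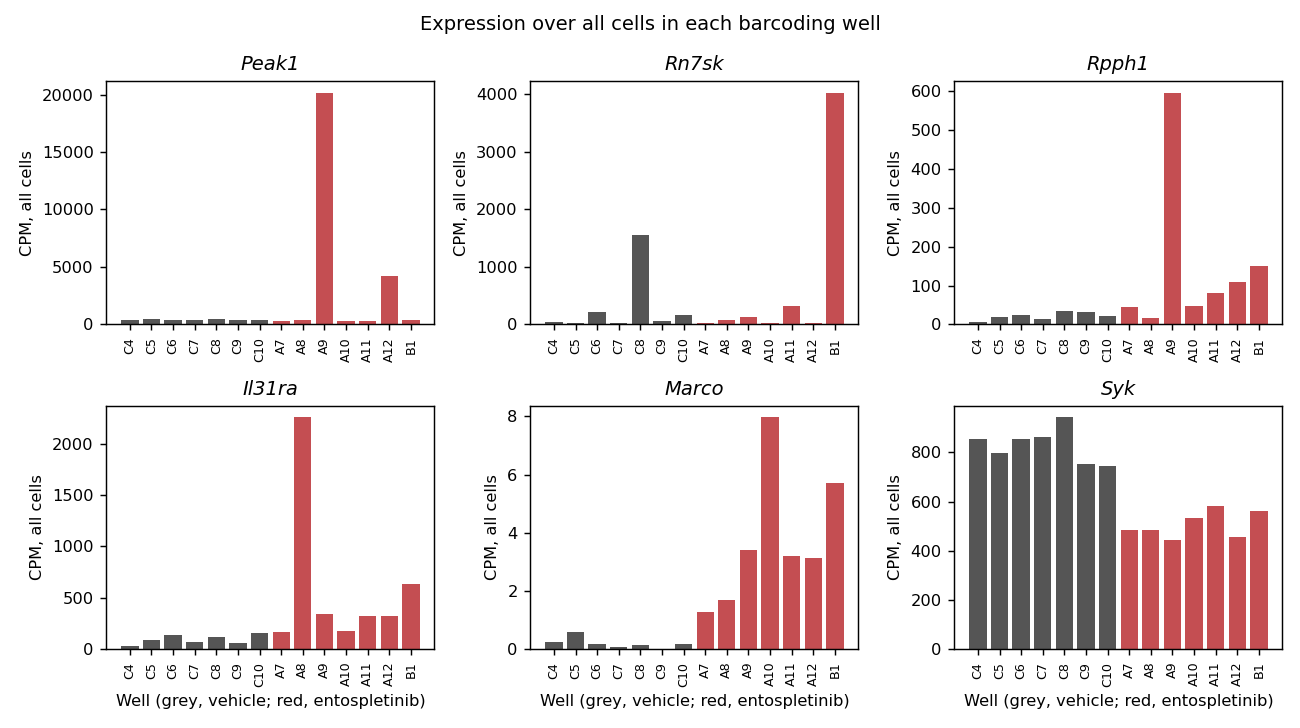
CPM over all cells in each of 7 vehicle wells (grey, C4 to C10) and 7 entospletinib wells (red, A7 to B1) for 6 genes, on linear axes from 0. Peak1, Rn7sk, Rpph1 and Il31ra each have 1 entospletinib well far above the rest, at 20175, 4030, 596 and 2261 CPM, and Rn7sk also 1 vehicle well at 1554 CPM, whereas Marco is higher and Syk lower in each entospletinib well.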

How the data were processed

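Kidney cell suspensions were profiled with Evercode combinatorial barcoding, and per the labels the authors aligned the reads to mm10 and made the gene counts with the kit maker's pipeline. The deposited values are counts of transcripts per gene and cell over 57010 genes, not normalized, with a table that gives each cell's condition and barcoding wells. Summed counts matched that table for 120281 of 120281 barcodes. Each GEO sample is a sublibrary that holds all conditions, so groups came from the cell table.

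Cells were kept by the limits stated in the report. For the gate, log counts per 10000 were z-scored per marker. A cell entered the class with the highest mean z if that was over 0.3 and 0.2 above the next class, with at least 3 markers detected. Cells meeting classes of different lineages stayed unassigned, a rule added after the data were seen. In all, 32.6% of cells met the limits of another class and 9.27% lay within 0.1 of a limit. Counts were summed per class and pool (0.5 counts added before the log2 ratio). Named genes were members of 18 gene lists and, per class, the 10 largest and 10 smallest ratios past 2-fold with the same direction in 8 of 8 sublibraries, without predicted, mitochondrial or ribosomal protein genes. Genes of single wells and the promoter motif were chosen after their values were seen. Members, lists and markers were chosen with earlier results of these data known. A list's genes are not independent. Intervals are Clopper-Pearson for shares and exact Poisson for CPM at 95% and cover counting error only. No count model was fitted; edgeR 4.0.16 (R 4.3.3) gave TMM factors for an alternative. Python 3.11.15, numpy 2.4.6, scipy 1.17.1 and pandas 2.3.3 were used. On simulated neutrophil counts, 50 of 50 genes raised 3-fold and 0 of 5064 unchanged genes were past 2-fold. On simulated endothelial counts, 50 of 50 genes raised 3-fold, 2 of 50 raised 1.5-fold and 3 of 7929 unchanged genes were. Both simulations were Poisson draws from a profile shared by the pools, without spread between mice, pools or wells. They checked the calculation and give no error rate for the calls in these data. Alternatives were a ribosomal limit of under 1.5% of counts from ribosomal protein genes, over 500 genes, a stricter gate, thinning to 1000 counts, TMM, at least 100 counts and leaving out each sublibrary. Added after the data were seen were mixed cells kept, wells of like depth and medians over wells. A few genes are not reported here.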

Additional observations from a re-analysis of the deposited data

Results flagged for a closer look

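Over 100 groups of wells or sublibraries, 15 had 1 value that stood far from the others of its pool, where chance gives about 1 in 20. Several of the genes below were looked at because single wells stood apart, so the count cannot be read against that rate. Among sublibraries with entospletinib, the fourth had a macrophage share of 23.2%, and the seventh a T cell share of 1.1% and 37.7% of cells at the ribosomal limit. The proximal tubule share was 3.20% in vehicle well C7.

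The other values were levels of single genes over all cells of a well. With entospletinib, well A9 stood apart in *Peak1* (20175 CPM), *Rpph1* (596 CPM) and *Rn18s-rs5* (229795 CPM), well A8 in *Il31ra* (2261 CPM), well B1 in *Rn7sk* (4030 CPM) and *Ccnb1ip1* (347 CPM), and well A10 in *Ms4a12* (16.7 CPM). With vehicle, well C8 stood apart in *Rn7sk* (1554 CPM), C10 in *Igha* (67.6 CPM), C4 in *Edn1* (10.7 CPM) and C5 in *Marco* (0.57 CPM).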

How the results depend on the processing

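No paired analysis was possible because each treatment was 1 pool, and sublibraries and wells are technical portions of it. Leaving out each sublibrary in turn moved no share ratio by more than 1 SD over sublibraries and no total of genes past 2-fold by more than 1.5 times. By direction, the lower genes ranged from 5 to 15 in NK cells (10 with all sublibraries), from 3 to 8 in T cells (7), from 15 to 25 in B cells (23) and from 23 to 35 in nonclassical monocytes (35), and the higher genes from 8 to 14 in NK cells (9). The share ratios (log2) that moved were as follows. With cells of 2 classes left out they were 1.5 for macrophages, −1.08 for monocytes, 0.97 for nonclassical monocytes and 0.80 for T cells. In wells of like depth they were −1.48 for monocytes, 0.69 for nonclassical monocytes and 0.80 for endothelial cells. Under the ribosomal limit they were −0.82 for neutrophils, 0.51 for cDC1, 0.16 for T cells, 1.06 for B cells and 1.29 for endothelial cells. With thinning they were −1.67 for neutrophils, 0.26 for T cells and 0.81 for B cells. Over 500 genes gave −1.56 for neutrophils, the stricter gate 1.13 and mixed cells kept 1.01 for B cells. The share of cells at the ribosomal limit was 33.2% with entospletinib and 11.8% with vehicle after thinning, and 20.8% and 17.9% in wells of like depth.

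Counts of genes past 2-fold depended on depth and on small classes. With at least 100 counts, which tests fewer genes, there were 424 in all cells, 58 in macrophages, 30 in monocytes, 27 in nonclassical monocytes, 93 in neutrophils, 40 in cDC1, 34 in cDC2, 8 in T cells, 5 in NK cells, 5 in B cells, 25 in endothelial cells, and 15, 9 and 35 in the proximal, loop and distal tubule. Thinning gave 79 in macrophages, 33 in cDC1, 19 in T cells, 47 in endothelial cells, and 56, 11 and 14 in the tubule classes. Mixed cells kept gave 100 in T cells, 63 in NK cells, 171 in B cells, and 248, 180 and 218 in the tubule classes. Wells of like depth gave 58 in cDC1, 10 in NK cells, 13 in B cells, 37 in the loop and 34 in the distal tubule. The ribosomal limit gave 84 in cDC1, 18 in T cells and 17 in B cells. TMM, over 500 genes and the stricter gate moved no total past 1.5 times, but the split of higher and lower genes moved under several alternatives. TMM splits are given in the report for the 8 classes where the higher share moved by over 10 percentage points. Beside the splits given there, the more frequent direction turned as follows, with the higher genes first. Under the ribosomal limit it was 35 and 46 in cDC2, 7 and 6 in NK cells, 11 and 6 in B cells and 52 and 67 in the proximal tubule. With the stricter gate it was 10 and 8 in NK cells and 25 and 18 in B cells, and over 500 genes gave 35 and 33 in nonclassical monocytes. Thinning gave 9 and 5 in NK cells and 7 and 7 in the distal tubule, and wells of like depth 8 and 2 in NK cells. With at least 100 counts it was 15 and 12 in nonclassical monocytes, 23 and 17 in cDC1, and 5 and 0 in both NK and B cells. Mixed cells kept gave 51 and 12 in NK cells, 152 and 19 in B cells, 106 and 142 in the proximal tubule and 65 and 115 in the loop. Leaving out 1 sublibrary turned or evened it in nonclassical monocytes, NK cells and B cells. In macrophages, T cells and endothelial cells it turned under none of these.

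Of 299 gene and class pairs named, 9 kept their direction but were no longer past 2-fold with TMM, 19 under the ribosomal limit, 60 with thinning, 53 in wells of like depth and 46 by the median over wells. Over 500 genes ended 6 calls, and of 279 pairs mixed cells kept ended 37 and the stricter gate 21. Leaving out each sublibrary in turn ended the call in 118 fits and kept it in 2274. A further 2, 5 and 10 turned direction with thinning, in wells of like depth and by the median over wells. By the median over wells *Peak1* turned to −0.29 in all cells, −0.24 in macrophages, −0.40 in monocytes, −0.20 in neutrophils, −0.28 in T cells, −0.23 in endothelial cells, −0.22 in the loop and −0.35 in the distal tubule, *Rny1* to 0.91 in all cells and *Nr4a2* to 0.055 in B cells. In wells of like depth *Ms4a12* turned to −1.43 in all cells, *H2-Q5* to 0.096 in nonclassical monocytes, *Cx3cr1* to −0.40 in cDC1, *Nr4a3* to 0.12 in B cells and *Hsph1* to 0.038 in endothelial cells. With thinning *Mcf2l* turned to 0.48 and *Cdc73* to 0.24 in the loop. Beyond the wells that hold *Peak1*, the cause was not tested.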
